A study of Mus musculus with 2 samples.

Results

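The 10 genes described here encode proteins that neutrophils store in granules: *Elane*, *Mpo*, *Prtn3*, *Ctsg*, *Fcnb*, *Camp*, *Ngp*, *Ltf*, *Lcn2* and *Mmp8*. They were taken by symbol from the 31053 genes of the count matrices, where each occurs once. Their levels were read in single cells of bone marrow (BM) that had been sorted as 7-AAD-, CD11b+, Ly6C+ and Ly6G-, a gate drawn for monocytes, from mice of the hybrid background C57BL/6;Balb/c. Mice of the radiation control (RC) received 300 rads. Mice with induced severe aplastic anemia (SAA) received 300 rads and 65000000 splenocytes of B6 donors, whose T cells attack the marrow of the host. Marrow of 3 mice was pooled in each group and gave 1 library, so no p-value can be had, and every difference below describes 2 libraries. Intervals are exact 95% intervals that cover counting error only.

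Neutrophils build their granules in sequence while they mature in the marrow. Azurophil granules, which hold myeloperoxidase and the serine proteases, are filled first, in promyelocytes that divide. Specific granules with lactoferrin and its companions follow in myelocytes and metamyelocytes, and gelatinase granules come last, in band cells that no longer divide. A protein goes to the granule that is being built when its gene is read, so the timing of the transcripts is known to set where each protein is stored. Here *Elane*, *Mpo*, *Prtn3* and *Ctsg* were taken as azurophil granule genes, and *Camp*, *Ngp*, *Ltf*, *Lcn2* and *Mmp8* as specific granule genes. *Fcnb*, which encodes a ficolin that binds sugars on microbes, was kept apart.

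Barcodes were called granulocyte-like where at least 1000 genes were detected and the UMIs of the 10 genes outnumbered those of the monocyte genes *Csf1r*, *Ccr2*, *F13a1*, *Ms4a6c* and *Ly86*. This held for 320 of 662 such barcodes in RC (48.3%, 44.5 to 52.2%) and for 429 of 729 in SAA (58.8%, 55.2 to 62.4%), of 798 and 825 barcodes in all. The members' own UMIs chose these barcodes, so that their high level there is no finding. The choice had a wide margin in most barcodes, with a median of 691.5 UMIs of the 10 genes against 0 of the monocyte genes in RC and of 583 against 0 in SAA. Only 4 barcodes in RC and 15 in SAA passed by 5 UMIs or fewer, and 22 and 68 failed by as little. The label was checked on genes that the rule did not use. *Cebpe*, a factor required for specific granules, had 399.4 UMIs per 1000000 (CPM) in granulocyte-like barcodes of RC and 483.0 in SAA, against 18.4 and 12.0 in the other barcodes. *Gfi1*, a repressor needed for neutrophil development, had 71.9 and 47.7 CPM against 0.738 and 6.74.

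Of markers of other cells, the 8 T or NK genes had 14.1 CPM in granulocyte-like barcodes of RC, all from *Cd3d* with the other 7 genes at 0, and 108.7 CPM in SAA with 7 of the 8 genes present. In SAA 10 granulocyte-like barcodes had at least 3 UMIs of these genes other than *Cd3d*, 9 of them among the 15 near the margin, and 0 in RC. The 5 monocyte genes of the rule had 74.3 CPM in RC and 166.7 CPM in SAA, levels that the rule itself kept low. Outside the rule, the 6 monocyte genes *Klf4*, *Irf8*, *Fn1*, *Cx3cr1*, *Ctss* and *Cd74* had 39.8 CPM in RC and 291.1 CPM in SAA. At least 3 of their UMIs were found in 8 and 41 granulocyte-like barcodes. In the other barcodes these 6 genes had 4472 and 4940 CPM. Their part in the differences between the libraries was not tested. The 4 basophil genes had 4.02 and 3.26 CPM, and the 4 eosinophil genes 0 UMIs in RC and 1 in SAA. The libraries hold 4066589 and 5592265 UMIs, and granulocyte-like barcodes had similar depths, with medians of 6779 UMIs in RC and 6872 in SAA. The libraries share 1 barcode, which was granulocyte-like in neither.

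Stages were set with genes outside the 10. K is the sum of UMIs of *Mki67*, *Top2a*, *Stmn1* and *Pclaf*, genes of dividing cells, and barcodes with K of at least 5 were called cycling. L is the sum of *Ly6g*, *Cxcr2*, *Retnlg* and *Mxd1*, genes of late neutrophils, and barcodes with L of at least 2 were called late. Of granulocyte-like barcodes, 270 were cycling and 50 non-cycling in RC (15.6% non-cycling, 11.8 to 20.1%), and 354 and 75 in SAA (17.5%, 14.01 to 21.4%). Late barcodes made up 21 of 50 non-cycling and 121 of 270 cycling barcodes in RC, and 49 of 75 and 243 of 354 in SAA. These shares depend on the sort, which removed cells with Ly6G on their surface, and on depth, as non-cycling barcodes had medians of 4856 and 4271 UMIs against 7310.0 and 7604 in cycling ones. The late shares also depend on the genes of L. In cycling barcodes *Mxd1* and *Cxcr2* were higher in SAA than in RC, while *Ly6g* and *Retnlg* were at similar levels. Late barcodes of RC and of SAA are thus not known to be like classes.

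All 10 genes are protein-coding genes of the mouse build GRCm38 (mm10). *Prtn3* (chromosome 10, 79874476 to 79883174) and *Elane* (79886247 to 79888215) are neighbours on the plus strand with 3072 bases between them. *Camp* (109847379 to 109849617, minus strand), *Ngp* (110419747 to 110423012) and *Ltf* (111019271 to 111042767) follow one another on chromosome 9 with 570129 and 596258 bases between them. *Mmp8* (7558456 to 7568485) lies far off on the same chromosome. *Fcnb* (28076378 to 28084885) and *Lcn2* (32384633 to 32388252) are on the minus strand of chromosome 2, *Mpo* is on chromosome 11 (87793581 to 87804413) and *Ctsg* on chromosome 14 (56099881 to 56102574). *Prtn3* overlaps *Plppr3*, and *Mpo* overlaps the predicted gene *Gm11505*, so reads there can belong to either.

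Because the azurophil and the specific granule genes differed in opposite directions, promoter sequence is shown for 2 genes of each class, 5′ to 3′, from 250 bases before the RefSeq start up to the annotated gene start (RefSeq, GRCm38.p6). Capitals mark matches on either strand to GAGGAA, the core of sites of the factor PU.1, and to TTNNGNAA, the outline of sites of the C/EBP factors.
Elane, chr10:79886062-79886246, plus strand: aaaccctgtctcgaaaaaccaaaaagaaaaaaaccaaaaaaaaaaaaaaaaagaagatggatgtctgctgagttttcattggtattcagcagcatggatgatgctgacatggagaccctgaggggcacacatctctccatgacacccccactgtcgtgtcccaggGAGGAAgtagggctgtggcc
Ctsg, chr14:56102575-56102824, minus strand: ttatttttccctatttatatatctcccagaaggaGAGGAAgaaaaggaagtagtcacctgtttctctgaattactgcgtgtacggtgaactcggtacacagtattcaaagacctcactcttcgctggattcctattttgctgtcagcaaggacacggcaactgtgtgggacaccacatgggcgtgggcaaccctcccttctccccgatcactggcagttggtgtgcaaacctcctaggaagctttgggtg
Ngp, chr9:110419558-110419746, plus strand: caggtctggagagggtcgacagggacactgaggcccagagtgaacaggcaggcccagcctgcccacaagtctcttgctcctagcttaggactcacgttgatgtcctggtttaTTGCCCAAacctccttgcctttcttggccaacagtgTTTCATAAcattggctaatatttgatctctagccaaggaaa
Ltf, chr9:111019042-111019270, plus strand: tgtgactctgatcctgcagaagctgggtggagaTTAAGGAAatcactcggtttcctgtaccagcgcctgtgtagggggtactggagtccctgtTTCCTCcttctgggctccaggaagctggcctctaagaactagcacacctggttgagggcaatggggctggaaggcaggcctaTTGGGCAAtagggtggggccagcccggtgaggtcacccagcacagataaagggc
In the 250 bases before the start, TTNNGNAA occurred in 0 of the 4 azurophil genes, in 4 of the 5 specific granule genes (*Ngp*, *Ltf*, *Lcn2* and *Mmp8*, not *Camp*) and in *Fcnb*, and in 36.8% of 32851 promoters. GAGGAA occurred in all 4 azurophil genes, in 3 specific granule genes (*Ltf*, *Lcn2* and *Mmp8*) and in 23.3% of promoters. The letters TGTGGT of RUNX sites occurred in *Ctsg* alone among the 10 genes and in 14.05% of promoters, and TATAAA likewise in *Ctsg* alone and in 12.4%. A match is a run of letters and not a site shown to be bound.

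The late neutrophil genes set the azurophil and the specific granule genes apart in the same direction in both libraries. In late barcodes all 4 azurophil genes were lower and *Camp*, *Ngp*, *Ltf* and *Lcn2* were higher than in the other barcodes, among cycling and among non-cycling barcodes, in RC and in SAA. *Ltf* and *Lcn2* were highest in non-cycling late barcodes, with 8532 and 11128 CPM in RC and 14121 and 17598 CPM in SAA. *Fcnb* differed least in each of the 4 pairs.

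*Elane*, neutrophil elastase, had 6649 CPM in cycling barcodes of RC that were not late and 2184 CPM in cycling late ones, then 7698 and 1615 CPM in non-cycling barcodes that were not late and that were. In SAA it had 2842, 1967, 1125 and 109.7 CPM in the same order. In each of the 4 pairs the late barcodes were the lower ones, with a ratio of 0.328 (0.313 to 0.345) in cycling and 0.210 (0.178 to 0.246) in non-cycling barcodes of RC. The ratios in SAA were 0.692 (0.659 to 0.727) and 0.0975 (0.0602 to 0.152). *Mpo*, the myeloperoxidase that makes hypochlorous acid, had 2873, 699.7, 3380.03 and 1211 CPM in RC and 967 CPM, 693.3, 827.8 and 18.3 CPM in SAA. In non-cycling late barcodes of SAA only 4 *Mpo* UMIs were found in 49 barcodes, so the ratio there, 0.0221, has an interval from 0.00589 to 0.0585. *Prtn3*, proteinase 3, had 4323, 1727, 5040.2 and 1422 CPM in RC and 3007, 2276, 1503 and 374.7 CPM in SAA. *Ctsg*, cathepsin G, had 779.3, 185.9, 997.3 and 165.1 CPM in RC. In SAA it had 247.8, 165.7 and 260.9 CPM and no UMI in non-cycling late barcodes, at least 19.03-fold lower there than in non-cycling barcodes that were not late, with 3 UMIs taken as the floor of the class. Of the 29 *Ctsg* UMIs in non-cycling barcodes of SAA that were not late, 16 were in 1 barcode.

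One barcode carried the azurophil level of non-cycling late barcodes in RC. It held 461 of the 481 azurophil UMIs of those 21 barcodes, beside 10 UMIs of *Camp*, 4 of *Ngp*, 1 of *Lcn2* and 0 of *Ltf*. Without it *Elane* had 123.2 CPM there in place of 1615, *Mpo* 10.3 in place of 1211, *Prtn3* 71.8 in place of 1422 and *Ctsg* 0 UMIs. That left 12 UMIs of *Elane*, 1 of *Mpo* and 7 of *Prtn3* in this class of RC, against 24, 4 and 82 in SAA. The level without this barcode was near that of SAA for *Elane* and lower for *Prtn3*, and *Mpo* had too few UMIs to compare. In SAA the barcode with the most azurophil UMIs held 25 of 110 in this class. Among the 26 non-cycling barcodes of SAA that were not late, 1 held 167 of 413 azurophil UMIs. Without it *Elane* had 682.6 CPM there in place of 1125, *Mpo* 461.5 in place of 827.8, *Prtn3* 1096 in place of 1503 and *Ctsg* 125.0 in place of 260.9. The ratios of non-cycling SAA barcodes above include it and would lie nearer to equal levels without it.

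The specific granule genes ran the other way. *Camp*, the cathelicidin antimicrobial peptide, had 35350.1, 54281, 33489.8 and 50951 CPM in RC in the same order of classes, and 20402, 28176, 24700.1 and 34410.4 CPM in SAA. *Ngp*, neutrophilic granule protein, had 22320.0, 37172, 20579 and 41621 CPM in RC and 18528, 34722, 26752 and 51122 CPM in SAA. *Ltf*, lactoferrin, which binds iron, had 2369, 5275, 3314 and 8532 CPM in RC and 2162, 6107, 4031 and 14121 CPM in SAA. For each of the 3 genes both late classes lay above both classes that were not late, in both libraries. *Lcn2*, lipocalin 2, which binds bacterial iron carriers, had 4084, 8339, 5446 and 11128 CPM in RC and 3819, 8681, 6461 and 17598 CPM in SAA. The late to not late ratio in non-cycling barcodes was 1.52 (1.47 to 1.58) for *Camp*, 2.02 (1.93 to 2.11) for *Ngp*, 2.04 (1.87 to 2.23) for *Lcn2* and 2.57 (2.31 to 2.86) for *Ltf* in RC. In SAA it was 1.39 (1.33 to 1.46), 1.91 (1.84 to 1.99), 2.72 (2.51 to 2.95) and 3.50 (3.17 to 3.88). The order *Camp*, *Ngp*, *Lcn2*, *Ltf* held in both, although the intervals of *Ngp* and *Lcn2* overlap in RC.

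**Figure D1:**
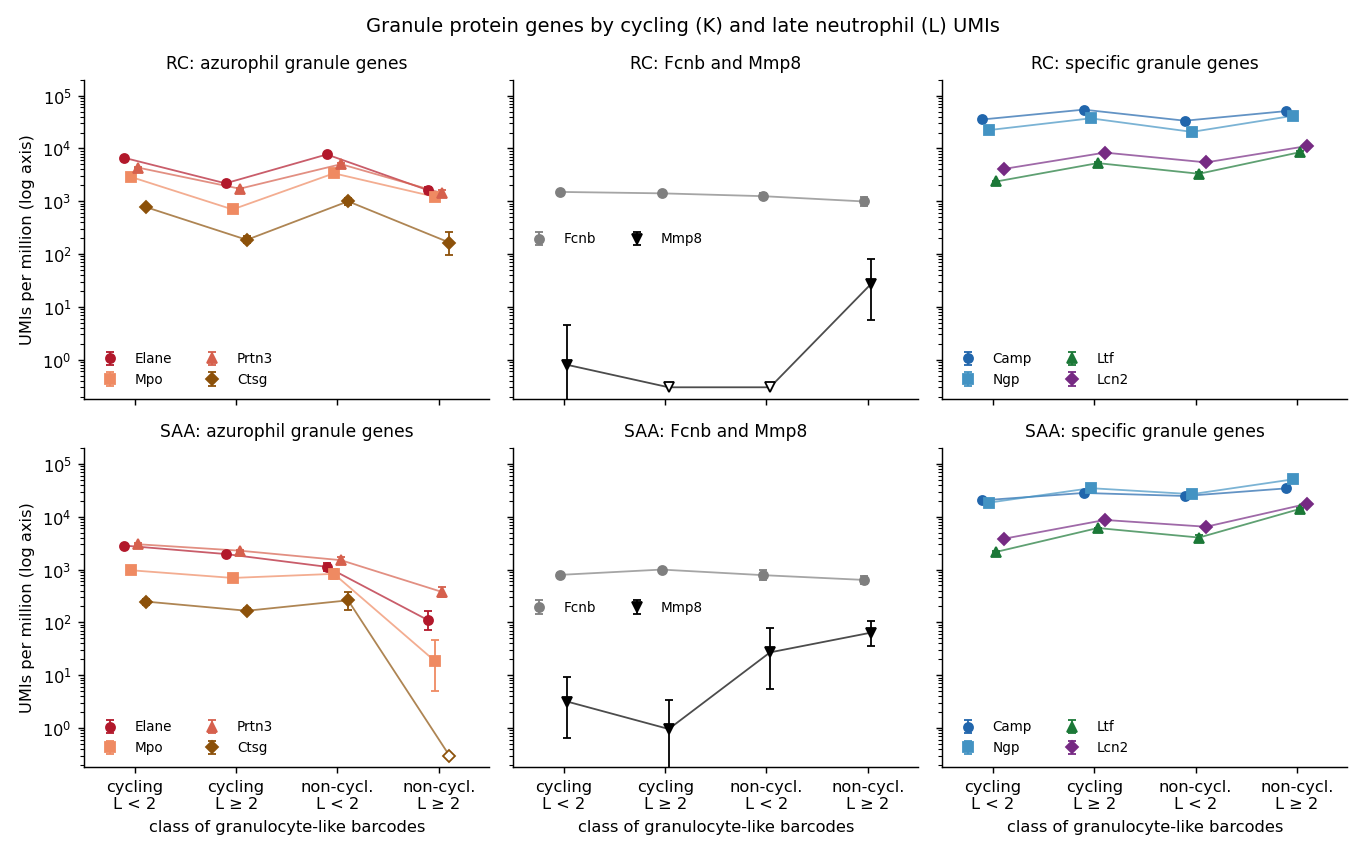
CPM on a log axis of the 10 genes in 4 classes of granulocyte-like barcodes of RC (top) and SAA (bottom), with exact 95% Poisson intervals. Open symbols at the foot stand for 0 UMIs. Azurophil genes are lower and specific granule genes other than *Mmp8* higher in each class with L of 2 or more than in its partner with L under 2, and *Ctsg* is at 0 in non-cycling late barcodes of SAA.

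*Fcnb* had 1502, 1412, 1248 and 991 CPM in RC and 792.7, 997.9, 782.8 and 635.2 CPM in SAA. Its late to not late ratio had an interval that includes equal levels in 3 of the 4 pairs, and was 1.26 (1.16 to 1.37) in cycling barcodes of SAA. *Mmp8*, neutrophil collagenase, was close to absent, with 4 UMIs in the 320 granulocyte-like barcodes of RC and 22 in the 429 of SAA. Of these, 3 in RC and 14 in SAA lay in non-cycling late barcodes, and 11 of the 14 in 1 barcode.

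Counted at 2-fold among genes with at least 20 UMIs in the pair, *Ltf*, *Lcn2* and *Ngp* were higher in non-cycling late barcodes of RC, beside 4.52% of 1572 genes, and the 4 azurophil genes were lower, beside 18.4%. In SAA *Ltf* and *Lcn2* were higher, beside 9.45% of 2001 genes, and the 4 azurophil genes lower, beside 17.8%. Among cycling barcodes *Ltf* and *Lcn2* were higher in both libraries, beside 1.22% of genes in RC and 2.61% in SAA. The 4 azurophil genes were past 2-fold lower in cycling barcodes of RC, beside 6.81% of genes, and none was in SAA, beside 7.71%. The median log2 difference of all genes tested was -0.30 in non-cycling RC, -0.13 in non-cycling SAA, -0.17 in cycling RC and -0.15 in cycling SAA. Directions held for all 4 azurophil and all 4 measured specific granule genes in each of 40 combinations of 10 other settings and the 4 pairs, although the counts past 2-fold moved. Not all 40 could differ. Leaving out T or NK-like barcodes changed no barcode of RC, and CPM without the members kept the same barcodes and changed the denominator only. The split of cycling barcodes by L and these 10 settings were chosen with the data in view.

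The share of a gene's UMIs that lay in late barcodes put the genes in a similar order in both libraries. In RC late barcodes held 42.8% of all UMIs, and of the azurophil genes 14.6% of *Ctsg* (12.8 to 16.6%), 16.1% of *Mpo* (15.1 to 17.2%), 19.05% of *Elane* (18.3 to 19.8%) and 22.4% of *Prtn3* (21.5 to 23.3%). The intervals of *Ctsg* and *Mpo* overlap. *Fcnb* followed at 41.1% (39.5 to 42.7%). *Camp* at 53.5%, *Ngp* at 56.1%, *Lcn2* at 60.4% and *Ltf* at 62.9% lay above, each outside the intervals of the others. In SAA late barcodes held 68.5% of all UMIs, 56.7% of *Ctsg* (52.7 to 60.7%), 59.0% of *Mpo* (57.0 to 60.9%), 59.4% of *Elane* (58.2 to 60.6%) and 61.5% of *Prtn3* (60.4 to 62.6%). The azurophil genes were thus closer to the share of all UMIs in SAA than in RC, and the 4 cannot be ordered there, since their intervals overlap. *Fcnb* at 72.6%, *Camp* at 75.002%, *Ngp* at 80.3%, *Lcn2* at 83.5% and *Ltf* at 86.4% again followed in this order with intervals that do not overlap.

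Division alone, the split by K, gave different pictures in the 2 libraries. In SAA the order of the genes by the share of UMIs in non-cycling barcodes ran from azurophil to specific granule genes. All UMIs had a share of 9.77%, *Elane* 2.14% (1.81 to 2.503%), *Prtn3* 3.16% (2.79 to 3.57%), *Mpo* 3.89% (3.16 to 4.73%), *Ctsg* 4.74% (3.20 to 6.73%) and *Fcnb* 7.36% (6.46 to 8.34%). Above it lay *Camp* at 11.6% (11.4 to 11.8%), *Ngp* at 13.5% (13.3 to 13.8%), *Lcn2* at 17.3% (16.9 to 17.8%), *Ltf* at 19.2% (18.7 to 19.8%) and *Mmp8* with 17 of 22 UMIs. The neighbours *Prtn3* and *Mpo*, *Mpo* and *Ctsg*, and *Ctsg* and *Fcnb* have overlapping intervals. In RC all UMIs had a share of 11.1%, and the azurophil genes lay between 12.3% (*Elane*) and 14.03% (*Mpo*), among *Camp* at 10.4%, *Ngp* at 11.2%, *Lcn2* at 13.9% and *Ltf* at 15.6%. No order of classes was seen there.

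As levels, *Elane* had 4717 CPM in cycling and 5299 CPM in non-cycling barcodes of RC, a ratio of 1.12 (1.06 to 1.19), and 2240.4 and 451.6 CPM in SAA, a ratio of 0.202 (0.170 to 0.237). *Mpo* had ratios of 1.31 (1.20 to 1.42) in RC and 0.374 (0.301 to 0.458) in SAA, *Prtn3* of 1.13 (1.06 to 1.21) and 0.301 (0.265 to 0.342), and *Ctsg* of 1.28 (1.09 to 1.497) and 0.459 (0.305 to 0.667). The azurophil genes of non-cycling RC barcodes sat in few of them, as 10 of 50 barcodes held 94.6% of the 3347 azurophil UMIs and 20 held none. These directions depend on the threshold. With K of at least 3, all 4 genes were lower in non-cycling barcodes of RC (log2 between -0.81 and -0.16), and with K counted after each barcode was thinned to 2000 UMIs they were higher in non-cycling barcodes of SAA (log2 between 0.31 and 0.57).

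*Ltf* had 3627 CPM in cycling and 5371 CPM in non-cycling barcodes of RC, a ratio of 1.48 (1.40 to 1.57), and 4874 and 10722 CPM in SAA, a ratio of 2.20 (2.12 to 2.28). *Lcn2* had ratios of 1.30 (1.24 to 1.36) in RC and 1.93 (1.87 to 1.996) in SAA. *Ngp* had 1.0045 (0.981 to 1.03) and 1.45 (1.42 to 1.47), and *Camp* 0.927 (0.909 to 0.946) and 1.21 (1.18 to 1.23). *Fcnb* was lower in non-cycling barcodes of both, at 0.784 (0.696 to 0.880) and 0.734 (0.638 to 0.840). *Mmp8* had 5 UMIs in cycling and 17 in non-cycling barcodes of SAA, a ratio of 31.4 (11.1 to 108.8), and too few UMIs for a ratio in RC. Most of the 17 UMIs lay in a single barcode, so this ratio rests largely on it. At 2-fold, 0 of 9 members tested in RC were higher, beside 3.47% of 7282 genes, and 0 lower, beside 13.2%. In SAA *Ltf* and *Mmp8* of 10 were higher, beside 5.12% of 7895 genes, and the 4 azurophil genes lower, beside 16.2%. Without the 3 non-cycling barcodes of SAA with T or NK genes *Lcn2* was past 2-fold too, at 2.03 (1.97 to 2.10), so that 3 members were higher, beside 4.94% of genes, and the same 4 lower, beside 18.4%.

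Finer bins of K showed where RC departed from an order. The 11 barcodes of RC with K of 50 or more and the 18 of SAA had the highest *Elane* (7781 and 3561 CPM) and the lowest *Ltf* (681.0 and 1119 CPM). The 15 and 20 barcodes with K of 0 had 1 and 0 UMIs of *Elane* and the highest *Ltf* (10039.9 and 17083 CPM). Between these ends *Elane* was lower at each step in SAA, with 2123, 1997 and 593.5 CPM, but not in RC, where barcodes with K of 1 to 4 had 6809 CPM, above the 4360 and 4653 CPM of the bins before. The 35 RC barcodes of that bin included 9 with more azurophil than specific granule UMIs. K is a count and rises with depth, as median UMIs went from 3998 and 3726 at K of 0 to 13654 and 18122.5 at K of 50 or more.

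**Figure D2:**
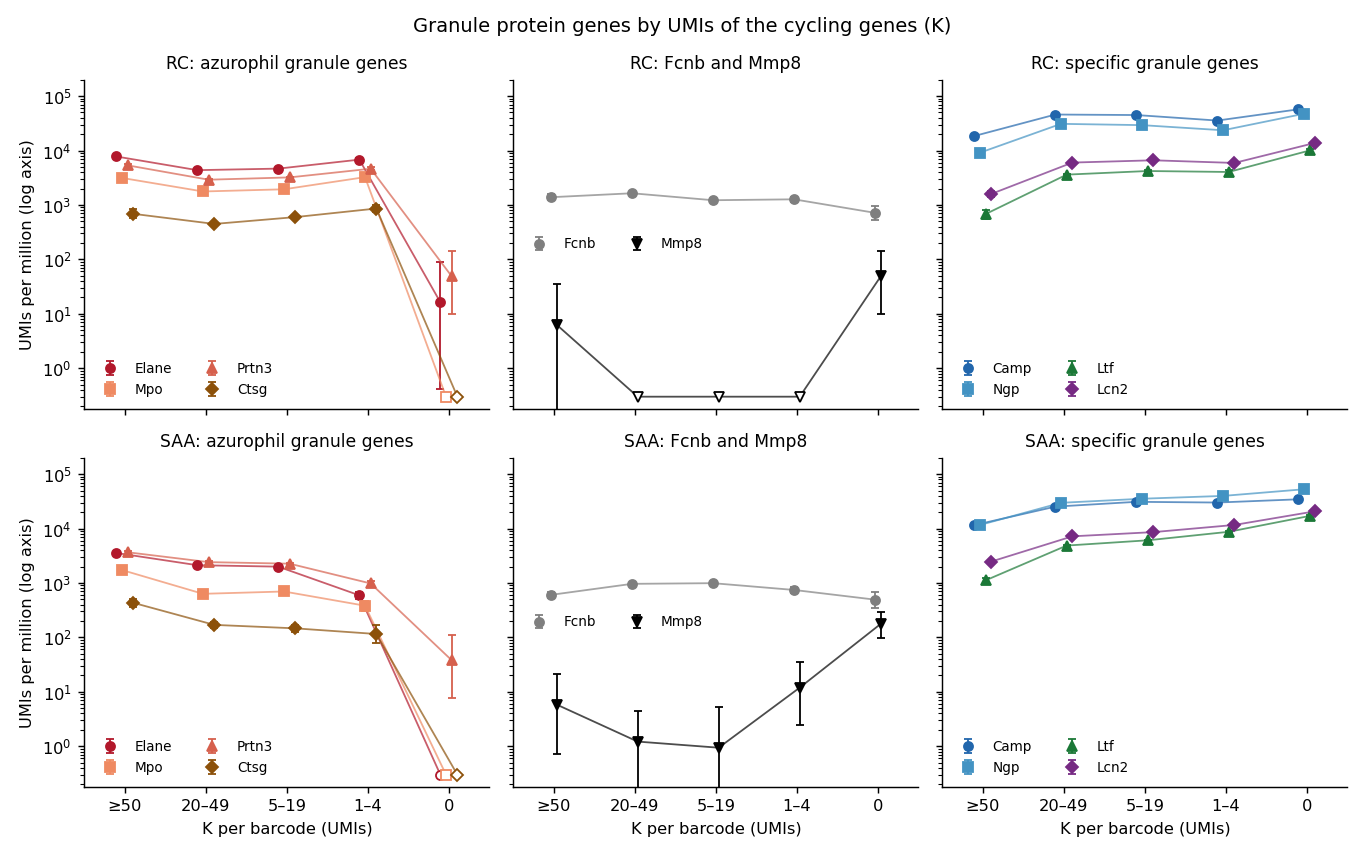
CPM on a log axis of the 10 genes by the number of UMIs of the 4 cycling genes, from dividing (left) to non-dividing barcodes (right), with exact 95% Poisson intervals and open symbols for 0 UMIs. At K of 0 the 4 azurophil genes together have 4 UMIs in RC and 3 in SAA, while *Ltf* and *Lcn2* are highest there in both libraries.

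A last group lies below the limit of 1000 genes, 34 barcodes in RC and 45 in SAA with more member than monocyte UMIs. They were looked at after the other values were known. They held 4 and 47 azurophil UMIs beside 8554 and 7282 of the specific granule genes. *Ltf* had 6732 and 11485 CPM and *Lcn2* 9643.5 and 12037 CPM in them, between the levels of cycling and of non-cycling late barcodes. *Fcnb* was at 410.6 and 551.6 CPM, under all 4 classes of its library. *Mmp8* reached 24.9 CPM there in RC, on 2 UMIs, and 232.9 CPM in SAA, on 19 UMIs of which 11 were in 1 barcode.

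Single barcodes showed the same split. In RC 51 of 320 barcodes (15.9%, 12.1 to 20.4%) and in SAA 33 of 429 (7.69%, 5.35 to 10.6%) had more azurophil than specific granule UMIs. At least 10 UMIs of both classes were found in 95 barcodes of RC (29.7%) and in 207 of SAA (48.3%). Of 270 cycling barcodes of RC, 91 had no azurophil UMI and 67 had 50 or more. Of 354 in SAA, 40 had none and 85 had 50 or more. Over barcodes thinned to 2000 UMIs, 320 in RC and 427 in SAA, azurophil genes correlated with each other (median Spearman's rho of 6 pairs 0.81 in RC and 0.55 in SAA), as did *Camp*, *Ngp*, *Ltf* and *Lcn2* (0.67 and 0.64). Between the classes all 16 pairs were negative, with medians of -0.70 and -0.46. These are correlations across barcodes of 1 library each, which share their source and are no replicates. The barcodes were also chosen by the sum of the same genes. That leaves out most barcodes low in both classes and can favour negative values between them. How far it did so was not tested.

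**Figure D3:**
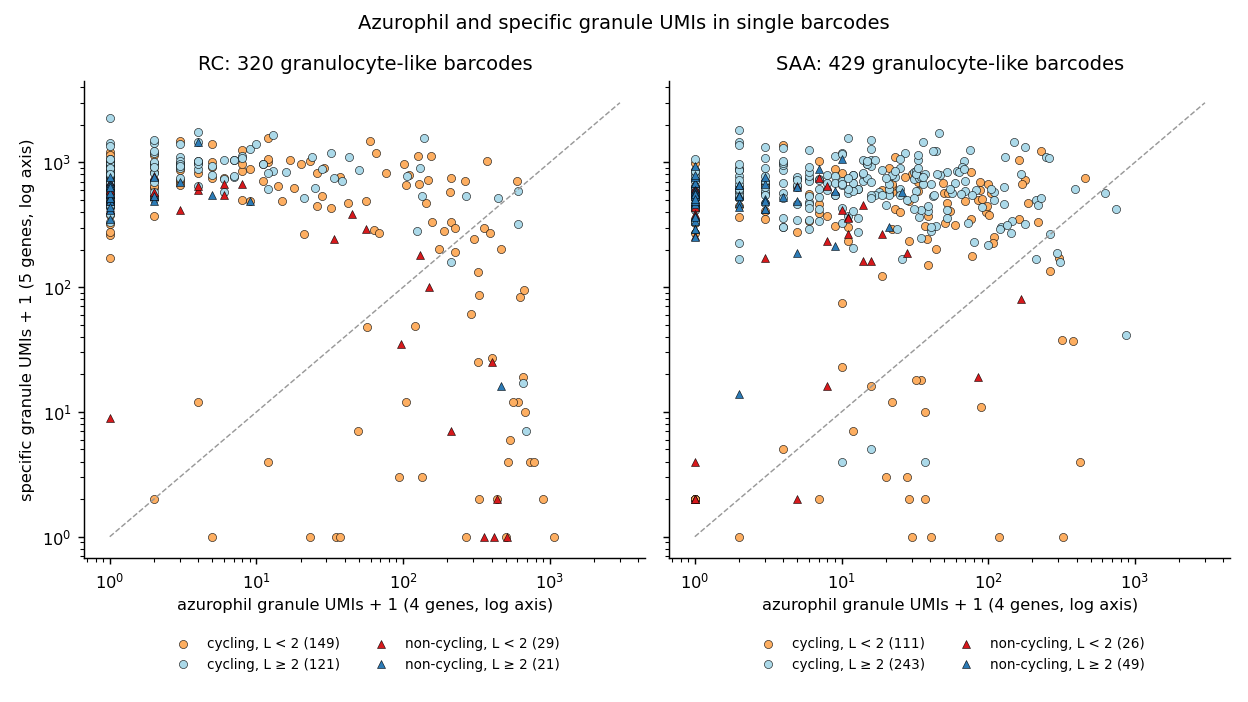
UMIs of the 4 azurophil genes against UMIs of the 5 specific granule genes in each granulocyte-like barcode, both plus 1 on log axes, coloured by class with the number of barcodes in brackets. The dashed line marks equal UMIs. Barcodes under it, 51 in RC and 33 in SAA, have more azurophil than specific granule UMIs, some of them with few of either, and barcodes with L of 2 or more crowd at the top.

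Among the genes most like *Elane* over these barcodes, beside *Prtn3* and *Mpo*, were *Rpl41* (rho 0.71 in RC and 0.54 in SAA), *Srgn* (0.79 and 0.54), *Rps27a* (0.62 and 0.49) and *Rpl37a* (0.66 and 0.45), out of 1921 genes compared. *Srgn* encodes serglycin, the proteoglycan core of granules, and the other 3 encode ribosomal proteins. The genes most like *Ltf*, beside *Lcn2* and *Ngp*, were *Anxa1* (0.67 and 0.75), *Wfdc21* (0.66 and 0.60), *Lyz2* (0.59 and 0.59), *S100a8* (0.63 and 0.59) and *S100a9* (0.66 and 0.59). *Lyz2* is lysozyme, *S100a8* and *S100a9* form calprotectin of the cytosol, and *Anxa1* is annexin A1.

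The other genes of the pathway were read from fixed lists. Of 11 other azurophil granule genes 10 were measured in the K comparison, and 0 in RC and 2 in SAA were at least 2-fold lower in non-cycling barcodes, beside 13.2% and 16.2% of all genes, with medians of -0.01 and -0.25 beside -0.10 and -0.18 for all genes. The 2 were *Srgn* and *Prss57*, a serine protease of azurophil granules, which was named for its value. *Srgn* had 998.4 and 1342 CPM in cycling and non-cycling barcodes of RC and 420.1 and 97.0 CPM in SAA, a ratio of 1.34 (1.20 to 1.501) and of 0.231 (0.157 to 0.328). *Prss57* had ratios of 1.06 (0.756 to 1.46) and 0.484 (0.268 to 0.812). *Serpinb1a*, an inhibitor of elastase, had ratios of 0.913 (0.781 to 1.06) and 0.986 (0.869 to 1.12). *Cd63*, a membrane protein of azurophil granules, had 0.945 (0.802 to 1.11) and 0.834 (0.686 to 1.005). Of 10 other specific granule genes 8 were measured in RC, with 0 past 2-fold and a median of -0.01, and 9 in SAA, with 2 at least 2-fold higher, beside 5.12% of all genes, and a median of 0.45. *Chil3*, a chitinase-like lectin, had ratios of 0.987 (0.924 to 1.05) in RC and 1.30 (1.24 to 1.37) in SAA. *Pglyrp1*, which binds bacterial wall, had 1.02 (0.944 to 1.10) and 1.19 (1.12 to 1.26), and *Cybb*, the oxidase subunit, 1.26 (1.14 to 1.38) and 1.37 (1.28 to 1.47).

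Of the gelatinase granule genes *Mmp9* lay beyond the specific granule genes in both libraries, and the others did not all do so. *Mmp9*, gelatinase B, had 3.62 CPM in cycling barcodes of RC, 5.97 CPM in non-cycling ones that were not late and 110.1 CPM in non-cycling late ones. The same classes of SAA had 9.85, 8.998 and 324.5 CPM. The late levels rest on 12 UMIs in 3 barcodes of RC, 8 of them in 1 barcode, and on 71 UMIs in 13 barcodes of SAA, 48 of them in 1 barcode. Without that barcode *Mmp9* had 37.9 CPM in RC and 107.9 CPM in SAA there. *Mmp9* was at 0 UMIs in the other barcodes of both libraries. Late barcodes held 20 of 21 *Mmp9* UMIs in RC and 101 of 102 in SAA (99.0%, 94.7 to 99.98%), above the 86.4% of *Ltf*. *Mmp25*, a membrane-bound metalloproteinase, had 28 and 52 UMIs, of which 71.4% (51.3 to 86.8%) and 90.4% (79.0 to 96.8%) were in late barcodes. *Itgam*, the CD11b of the sort, had 48.0% (44.4 to 51.6%) and 77.9% (75.4 to 80.2%) there, below *Camp* in RC and below *Lcn2* in SAA. *Adam8* had 35 of 44 UMIs in late barcodes of SAA (79.5%, 64.7 to 90.2%) and 4 UMIs in RC. Its interval in SAA includes *Fcnb*, *Camp*, *Ngp*, *Lcn2* and *Ltf*, and the 68.5% of all UMIs, so it could not be placed. *Slc11a1*, with 2 and 7 UMIs, could not be placed either. Of the list 1 of 3 genes measured in RC (*Mmp9*) was at least 2-fold higher in non-cycling barcodes and 1 lower (*Mmp25*, 1 UMI against 27), beside 3.47% and 13.2% of all genes, and 2 of 4 in SAA were higher (*Mmp9* and *Adam8*), beside 5.12%.

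Of 8 late neutrophil genes 2 of 7 measured in RC and 4 of 7 in SAA were at least 2-fold higher in non-cycling barcodes, beside 3.47% and 5.12% of all genes, with medians of 0.59 and 1.21. *Fpr2*, a formyl peptide receptor, had ratios of 1.51 (0.951 to 2.30) and 2.38 (2.05 to 2.76), *Ly6g* of 1.61 (1.19 to 2.15) and 2.31 (1.81 to 2.92), and *Mxd1* of 1.25 (0.752 to 1.996) and 1.92 (1.54 to 2.38). Of 10 transcription factors 9 were measured in each library, with 0 higher in both, beside 3.47% and 5.12% of all genes, and 2 lower in RC and 0 in SAA, beside 13.2% and 16.2%. *Cebpe* had ratios of 1.14 (0.937 to 1.38) and 1.14 (0.969 to 1.33), *Spi1*, which encodes PU.1, 0.956 (0.726 to 1.24) and 1.03 (0.824 to 1.27), and *Cebpb* 0.835 (0.607 to 1.13) and 0.725 (0.557 to 0.931). The progenitor genes *Npm1* and *Kit* had 974 and 96 UMIs in granulocyte-like barcodes of RC and 1456 and 10 in SAA, and *Sox4* had 6 and 1.

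Between the libraries the azurophil genes were lower in SAA in both stages, and the specific granule genes differed among themselves. In cycling barcodes *Elane* was at 0.475 of its RC level (0.461 to 0.490), *Mpo* at 0.403 (0.383 to 0.424), *Ctsg* at 0.366 (0.331 to 0.405) and *Prtn3* at 0.783 (0.758 to 0.808). In non-cycling barcodes the levels of SAA were 0.0852 of RC for *Elane* (0.0715 to 0.101), 0.115 for *Mpo* (0.0921 to 0.143), 0.131 for *Ctsg* (0.0856 to 0.195) and 0.209 for *Prtn3* (0.181 to 0.240). *Prtn3* was the azurophil gene that differed least in both. *Camp* was lower in SAA, at 0.591 (0.586 to 0.597) in cycling and 0.771 (0.751 to 0.792) in non-cycling barcodes, as was *Fcnb* at 0.638 (0.607 to 0.671) and 0.597 (0.501 to 0.711). *Ltf* was higher, at 1.34 (1.31 to 1.38) and 1.996 (1.88 to 2.12), and so was *Lcn2* at 1.21 (1.18 to 1.24) and 1.80 (1.71 to 1.90). *Ngp* was at 1.03 (1.02 to 1.04) and 1.49 (1.45 to 1.53), and its cycling value turned to just under equal levels with the median of ratios, with K of at least 10 and with K from thinned barcodes. *Mmp8* in non-cycling barcodes had 17 UMIs against 3, a ratio of 4.75 (1.37 to 25.3), with most of the 17 in a single barcode.

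At 2-fold, *Elane*, *Mpo* and *Ctsg* were lower in cycling barcodes of SAA, beside 4.77% of 8679 genes, and 0 of 9 members were higher, beside 7.03%. In non-cycling barcodes the 4 azurophil genes were lower, beside 7.05% of 3364 genes, and *Mmp8* was higher, beside 11.9%. Without the 3 non-cycling barcodes with T or NK genes *Ltf* was past 2-fold as well, at 2.10 (1.97 to 2.23), which made 2 members higher, beside 12.1% of genes. The 4 azurophil genes had ratios between 0.0895 and 0.219 then, beside 8.36% of genes lower. T or NK genes in non-cycling barcodes had 32.6 CPM in RC and 272.8 CPM in SAA, and their part in the other differences was not tested. Within non-cycling barcodes that were not late, SAA levels were 0.146 (*Elane*), 0.245 (*Mpo*), 0.262 (*Ctsg*) and 0.298 (*Prtn3*) of RC, with 0 members higher, beside 9.89% of genes, and 4 lower, beside 6.13%. These levels rest on few barcodes, as 5 of the 29 in RC held 73.9% of the azurophil UMIs, and 1 of the 26 in SAA held 167 of 413. Of the 26 in SAA 3 had T or NK genes. In non-cycling late barcodes *Elane* (0.0679), *Mpo* (0.0151) and *Prtn3* (0.264) were lower, beside 5.79% of genes, and 0 members higher, beside 15.4%, and *Ctsg* had 0 UMIs against 18. The RC side of these late ratios holds the single barcode with 461 azurophil UMIs. Without it *Elane* had 123.2 CPM in RC against 109.7 in SAA, *Mpo* 10.3 against 18.3, and *Prtn3* 71.8 against 374.7. *Elane* and *Prtn3* were then not 2-fold lower in SAA. *Mpo*, with 1 UMI against 4, had too few for a call. Of 10 other azurophil genes measured, 2 were higher and 1 lower in cycling barcodes of SAA, and 2 higher and 2 lower in non-cycling ones, beside the same shares of all genes. *Srgn* was lower in both, at 0.421 (0.392 to 0.451) and 0.0723 (0.0487 to 0.104), and *Prss57* in non-cycling barcodes, at 0.286 (0.148 to 0.523). The higher ones, named for their values, were *Ctsc*, the protease that activates the granule serine proteases, at 17.5 (12.4 to 25.4) and 10.3 (3.76 to 39.2), and *Ctsd*, a lysosomal protease, at 2.35 (1.97 to 2.81) and 2.49 (1.64 to 3.87). Of the late neutrophil genes 3 of 7 measured in cycling and 5 of 7 in non-cycling barcodes were higher in SAA, beside the 7.03% and 11.9% of all genes, and 0 lower in both. *Fpr2* was at 4.63 (3.86 to 5.58) and 7.32 (4.86 to 11.4), *Mxd1* at 2.69 (2.22 to 3.28) and 4.11 (2.55 to 6.92), and *Ly6g* at 0.914 (0.779 to 1.07) and 1.31 (0.928 to 1.86). The remaining genes of L, given for that reason, were *Cxcr2* at 3.94 (2.80 to 5.67) and 5.53 (2.83 to 12.1), and *Retnlg* at 0.947 (0.634 to 1.42) and 2.69 (1.45 to 5.31). The genes that define late barcodes thus differed between the libraries themselves. Of the progenitor genes 2 were measured in cycling barcodes. *Kit*, the stem cell factor receptor, was at 0.0760 (0.0336 to 0.151), with 9 UMIs against 86, and *Npm1* at 1.13 (1.04 to 1.23).

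**Figure D4:**
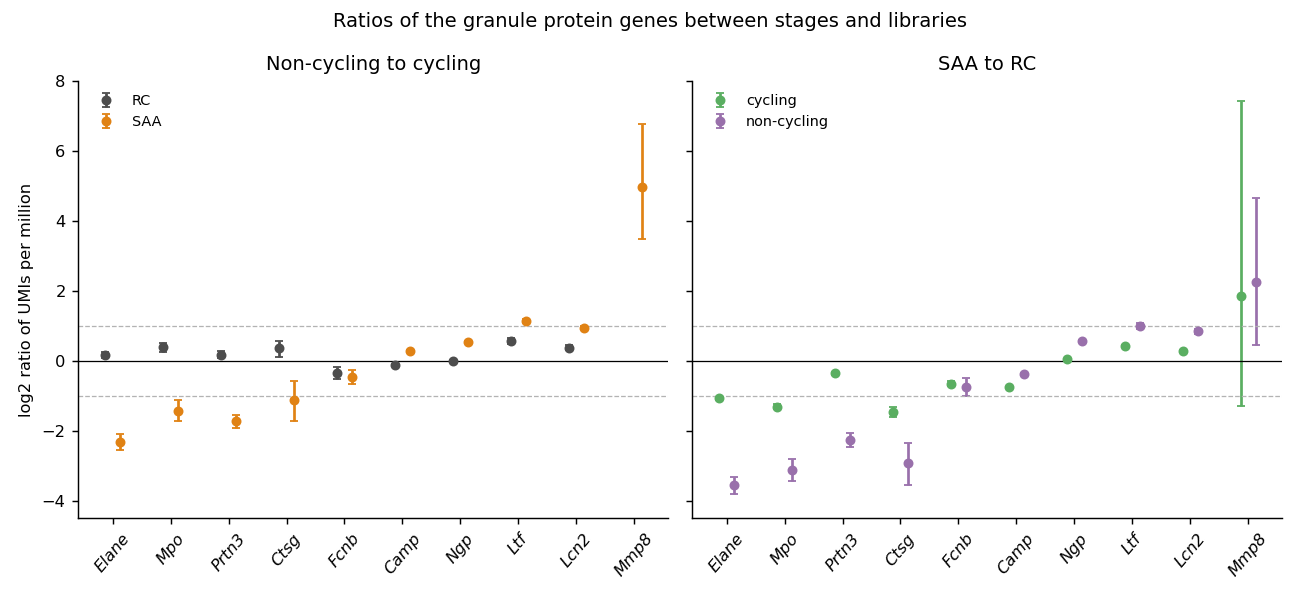
Log2 ratios of CPM with exact 95% intervals, of non-cycling to cycling barcodes within RC and SAA (left) and of SAA to RC within each stage (right), with dashed lines at 2-fold. The azurophil genes stand above 0 in RC and below -1 in SAA on the left, and below 0 in both stages on the right. *Mmp8* has no stage ratio in RC.

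The level and the number of barcodes with a UMI did not go together for every azurophil gene. *Elane* was found in 52.8% of granulocyte-like barcodes of RC and in 62.5% of SAA, or in 43.8% (38.2 to 49.4%) and 49.6% (44.8 to 54.5%) after thinning to 2000 UMIs, while its level was lower in SAA, so no order is read from the shares. In cycling barcodes the median was 1 *Elane* UMI in RC and 3 in SAA, and the highest values were 445 and 383. *Prtn3* was found in 44.7% (39.2 to 50.3%) of thinned RC and 68.6% (64.0 to 73.0%) of thinned SAA barcodes. *Ctsg* was found in 18.8% (14.6 to 23.5%) and 10.8% (7.996 to 14.1%), lower in SAA as its level was, and *Mpo* in 27.5% and 30.2%.

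Free RNA can place UMIs in cells that do not express a gene, so the same shares were taken in the other barcodes, which were rich in monocyte genes, and in the 40 T or NK-like barcodes of SAA, 10 of which are granulocyte-like too. In thinned barcodes other than T or NK-like ones *Elane* was found in 5.92% in RC and 9.33% in SAA, *Prtn3* in 14.8% and 33.2%, and *Lcn2* in 4.14% and 17.2%. Thinned T or NK-like barcodes of SAA, 38 in all, had a UMI of *Elane* in 2.63% (0.0666 to 13.8%) and of *Prtn3* in 0% (0 to 9.25%). Median depths before thinning were 6872 UMIs in granulocyte-like, 6173 in other and 4653 in T or NK-like barcodes of SAA. In SAA the share of *Prtn3* in the other barcodes differed from that in T or NK-like ones beyond counting error. No T or NK-like barcode of RC was left after thinning, so the RC share has no such comparison. The rule itself makes the abundant members more frequent in granulocyte-like barcodes than in the others. *Mmp8*, too scarce to weigh much in the rule, was found more often outside the granulocyte-like barcodes. Its level in the other barcodes was 83.4 CPM in RC, on 113 UMIs, and 44.8 CPM in SAA, on 93, against 1.61 and 6.52 CPM in granulocyte-like ones, and 14.8% (11.2 to 19.03%) and 8.58% (5.52 to 12.6%) of thinned other barcodes that were not T or NK-like held it.

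**Figure D5:**
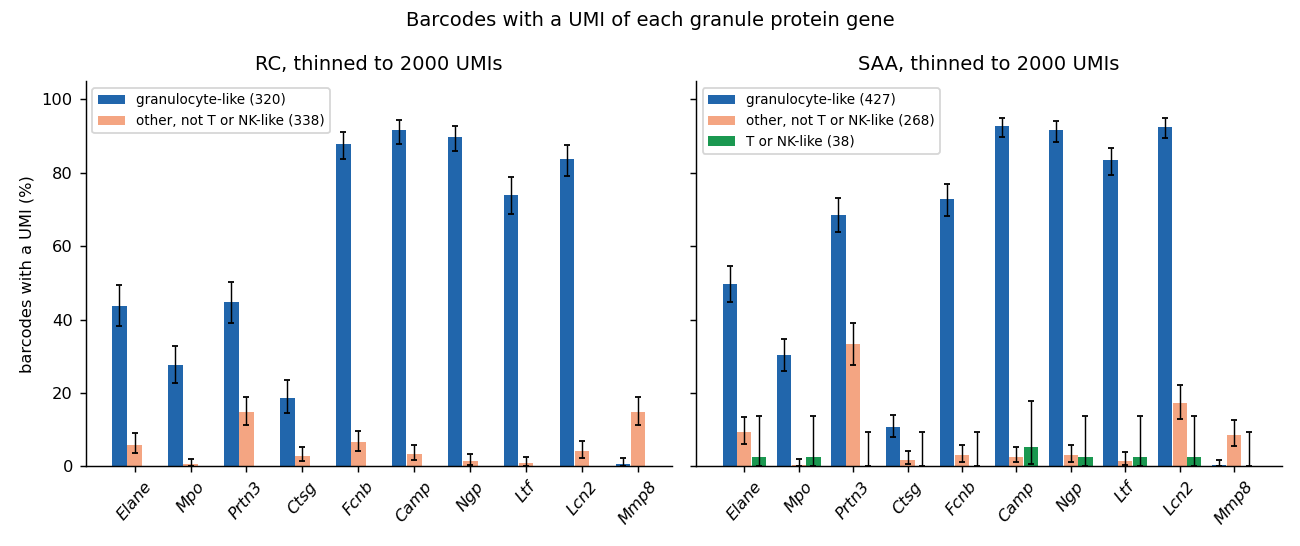
Share of barcodes with at least 1 UMI of each gene after thinning to 2000 UMIs, in granulocyte-like, other and, for SAA, T or NK-like barcodes, with Clopper-Pearson 95% intervals and the number of barcodes in brackets. *Camp*, *Ngp*, *Ltf*, *Lcn2* and *Fcnb* are found in most granulocyte-like barcodes, azurophil genes in fewer, and *Mmp8* mainly in other barcodes.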

How the data were processed

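Marrow cells of RC and SAA, 1 library a group, were analysed from the deposited count matrices, in which the authors counted UMIs per gene and barcode with Cell Ranger 6.0.1 on mm10 from 5′ libraries of the v2 chemistry. No further normalization had been applied. For each class of a library, UMIs of a gene were added up and scaled to all UMIs of that class (CPM). Ratios carry exact conditional binomial, levels exact Poisson and shares Clopper-Pearson 95% intervals, and no p-value is given with 1 library a group. A 2-fold call needs at least 20 UMIs over both sides, and 3 UMIs replace a count of 0. Thinning drew 2000 UMIs per barcode. No doublet caller was run, and how doublets were treated upstream is not given in the sources used here. No granulocyte-like barcode had over 25% mitochondrial UMIs, the study's limit.

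The 10 genes, the rule and the lists were chosen with earlier results of these data known. Named are all members, the 3 genes of each list with the most UMIs, all gelatinase granule genes, and the 5 genes most like *Elane* and *Ltf*, of which 1 is not reported here. *Cd3d* was left out of the T or NK call after the data had been seen, because it alone of that list occurred in granulocyte-like barcodes of RC. Names and positions come from GENCODE vM21, and all 10 members matched RefSeq promoters. Python 3.11.15, scipy 1.17.1 and edgeR 4.0.16 (TMM factors only) were used, and the ratio was tested on simulated data. The simulated sums held counting error only, so the uneven spread of UMIs over barcodes was not covered.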

Additional observations from a re-analysis of the deposited data

Results flagged for a closer look

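The stage difference of 5 genes had opposite directions in RC and SAA, each with an interval that excludes equal levels, and the difference between the libraries was not tested. As log2 ratios of non-cycling to cycling barcodes, *Elane* was at 0.17 in RC and -2.31 in SAA, *Mpo* at 0.39 and -1.42, *Prtn3* at 0.18 and -1.73, *Ctsg* at 0.36 and -1.12, and *Camp* at -0.11 and 0.27. The 4 azurophil genes share barcodes, so these are not separate observations.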

How the results depend on the processing

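Of 544 log2 ratios of members under alternatives, 353 moved by less than the counting error, 169 moved by more and 22 turned their direction. The cause of these moves was not tested. The 353 include ratios that could not move or hardly so. The 25% mitochondrial limit left out no granulocyte-like barcode, and leaving out T or NK-like barcodes left RC unchanged. TMM factors lay between 0.996 and 1.005. In the stage comparison of RC, K of at least 3 gave *Camp* 0.032, *Ctsg* -0.81, *Elane* -0.39, *Mpo* -0.16 and *Prtn3* -0.27, a minimum of 500 genes gave *Elane* -0.15 and *Prtn3* -0.14, a minimum of 1500 genes gave *Lcn2* -0.25 and *Ltf* -0.26, and K after thinning gave *Lcn2* -0.26 and *Ltf* -0.33. In SAA, K after thinning gave *Ctsg* 0.41, *Elane* 0.57, *Fcnb* 0.082, *Mpo* 0.35, *Prtn3* 0.31 and *Ltf* -0.022, and a minimum of 1500 genes gave *Camp* -0.25 and *Ctsg* 0.077. *Ngp* between SAA and RC in cycling barcodes became -0.088 with K after thinning, -0.026 with K of at least 10 and -0.021 with the median of ratios.

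The share of non-cycling barcodes in RC and SAA was 52.8% and 54.1% with K after thinning, 31.6% and 31.7% with K of at least 10, 10.3% and 12.8% with K of at least 3, 8.33% and 6.10% with 1500 genes, and 22.2% and 22.5% with 500 genes. The counts of members past 2-fold that follow are not set against all genes. Apart from the comparisons without T or NK-like barcodes, the share of all genes past 2-fold was not taken under these settings. Members higher in non-cycling barcodes of RC were 2 with K after thinning and 2 with 1500 genes. Those of SAA were 1 with K after thinning, with K of at least 10, with barcodes chosen by other granulocyte genes, with barcodes weighted equally and with members over 3 times the monocyte genes, and 0 with 1500 genes. Members lower in SAA were 0 with K after thinning, 0 with K of at least 10 and 1 with 1500 genes. Members higher in SAA than RC among non-cycling barcodes were 2 with CPM without the members, with TMM factors, with the median of ratios, without T or NK-like barcodes and without barcodes of other cell types, and 0 with 1500 genes.

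For late against other barcodes the share of all genes past 2-fold was not taken under other settings either, so these counts describe the members alone. Between late and other barcodes, members higher in cycling RC were 0 with L of at least 4 and 1 with barcodes chosen by other granulocyte genes, and in cycling SAA 1 with the latter. In non-cycling RC they were 1 with K of at least 3 and 1 with L after thinning, and in non-cycling SAA 1 with L after thinning and 4 with 1500 genes. Members lower were 4 with L after thinning and 3 with L of at least 4 in cycling SAA, and 1 with K of at least 3 in non-cycling RC. No paired analysis was possible because each group has 1 library.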
